A study of Mus musculus with 7 samples.

Results

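Death receptors are surface proteins of the tumour necrosis factor (TNF) receptor family that can start apoptosis, and they are held in check by a set of intracellular proteins. Described here are 10 genes of that system, chosen by symbol from 39017 rows of a count table of mouse CD4+ T cells: the ligand genes Fasl and Tnfsf10, the receptor gene Fas, the signalling complex genes Fadd, Casp8 and Cflar, the TNF receptor adaptor gene Traf2 with the cellular inhibitor of apoptosis (cIAP) genes Birc2 and Birc3, and Map3k5, which encodes the kinase ASK1. All 10 were in the table and all 10 passed the filter on low counts. The genes were proposed with their values in this same comparison already known. Their levels, changes and calls are therefore given as a description, and no test of the 10 as a set was made.

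Fas ligand on one T cell engages Fas on another, and Fas then recruits the adaptor FADD and caspase-8, whose activation is limited by the related protein c-FLIP, the product of Cflar. At TNF receptors, TRAF2 brings in the cIAP ubiquitin ligases, which favour survival and NF-kB signalling, and also ASK1, which activates the JNK and p38 kinases under oxidative stress. In peripheral T cells the Fas pathway is best known for removing repeatedly stimulated and self-reactive cells.

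RNA was sequenced from CD4+ T cells of female C57BL/6 mice with experimental autoimmune encephalomyelitis, an induced disease of the central nervous system used as a model of multiple sclerosis. The conditional knockout (cKO) group of 4 libraries was homozygous for floxed Kdm6a and carried CD4-Cre (+/-), and the wild-type (WT) group of 3 libraries consisted of littermates that were also homozygous for floxed Kdm6a but CD4-Cre (-/-). Kdm6a is X-linked and encodes UTX, a demethylase of the repressive histone mark H3K27me3. Lymph node cells taken on day 17 of disease were cultured for 18 hours with 25 µg/mL of a peptide of myelin oligodendrocyte glycoprotein (residues 35 to 55), after which CD4+ T cells were sorted. The labels used here give no age. CD4-Cre acts from the thymic stage at which cells carry both CD4 and CD8, so deletion is not restricted to mature CD4+ cells. Only the cKO group carried Cre, so effects of Cre and of the deletion cannot be told apart. The labels do not say that each library came from a separate animal, so the spread and the p-values given are those between libraries. Values per library are listed in the order of replicates 2, 3, 7 and 12 for cKO and 10, 14 and 19 for WT.

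Kdm6a had 96.3 to 104 CPM (counts scaled to a common library size, by TMM factors) in cKO and 113 to 125 CPM in WT libraries. Counts over the whole gene cannot show the removal of a few exons, and which exons were floxed is not stated in the labels used here. Total counts were 17910536 to 23721927 in cKO and 25360660 to 28697579 in WT libraries, so every cKO library was smaller. The transcript Gm42418 took 3.76 to 9.22% of the counts in cKO and 2.55 to 2.98% in WT, with the highest share in cKO replicate 2. That library stood apart from all others (chi-square per gene of 56.4 to 67.2 against the other cKO libraries, which differed among themselves by 7.92 to 18.2) and also had the highest B cell and monocyte marker sums. The chi-square takes the counts without TMM factors and includes Gm42418, and the part due to that transcript was not separated out. The CD4 T cell markers were abundant in every library, with Cd4 at 986 CPM or more and Cd3e at 366 CPM or more. Summed levels of B cell markers (37.2 to 201 CPM in cKO, 38.5 to 85.2 in WT), monocyte and macrophage markers (25.0 to 83.3 and 26.6 to 31.5), dendritic cell markers (12.5 to 19.5 and 11.3 to 15.9), natural killer (NK) cell markers (59.9 to 75.2 and 49.9 to 78.3), gamma delta T cell markers (4.61 to 7.48 and 5.75 to 11.1) and neutrophil markers (0.426 to 11.4 and 0.906 to 7.43) overlapped between the groups. Of these lists, 2 of 6 NK cell markers rose in cKO, the receptor genes Klrb1c and Klre1, and 1 of 2 gamma delta T cell markers in the table fell, Sox13. The dendritic cell marker Clec9a had no counts. Most of the NK cell sum came from Prf1 (44.4 to 64.1 CPM in cKO, 45.1 to 72.9 in WT). Among the monocyte and macrophage markers, Adgre1 (0.474 to 14.4 CPM in cKO, 0.118 to 0.425 in WT) and Cd14 (0.873 to 1.78 and 0.591 to 0.735) were higher in every cKO library. Neither had an adjusted p under 0.05 in edgeR, and the groups overlapped for the other markers of that list. The 2 CD8 T cell markers summed to 12.9 to 16.3 CPM in cKO and 9.12 to 11.5 in WT, mostly from Cd8b1. That sum was higher in every cKO library, and its part in the results below was not tested. In sorted bulk RNA, a lower level can come from fewer expressing cells or from less RNA per cell, and these cannot be told apart.

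In a quasi-likelihood fit of all 15968 tested genes with edgeR, 5 of the 10 genes passed an adjusted p of 0.05. Tnfsf10 and Birc2 rose in cKO, and Fas, Birc3 and Map3k5 fell. Over all tested genes 6.44% passed, 2.79% higher and 3.64% lower, and no inference is drawn from the members' share because this comparison was known when they were chosen. The median log2 fold change of the 10 was -0.15, against 0.01 over all tested genes. The cKO and WT libraries did not overlap for 6 of the 10 genes, and for 21.0% of all tested genes. Without cKO replicate 2, the library that stood apart, the same 5 of the 10 genes passed in edgeR, with log2 fold changes of -0.76 for Fas, 0.54 for Tnfsf10, 0.24 for Birc2, -0.29 for Birc3 and -0.86 for Map3k5.

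Stretches of 250 bases before the RefSeq start of the 5 genes that passed are printed here because they differ widely in base composition, also between the neighbours Birc2 and Birc3. The gene coordinates given below are those of GENCODE, by which the last 49 bases of the Tnfsf10 window, 54 of the Map3k5 window, 7 of the Birc2 window and 16 of the Birc3 window already lie inside the gene. They come from RefSeq on GRCm38.p6, the assembly of mm10, and each runs 5′ to 3′ on the gene's own strand with every CG in capitals.
Fas: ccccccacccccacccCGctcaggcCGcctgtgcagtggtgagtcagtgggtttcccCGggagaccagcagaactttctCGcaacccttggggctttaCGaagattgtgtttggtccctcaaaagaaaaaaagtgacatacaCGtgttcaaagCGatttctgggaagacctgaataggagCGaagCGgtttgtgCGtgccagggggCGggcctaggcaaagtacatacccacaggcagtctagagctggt
Tnfsf10: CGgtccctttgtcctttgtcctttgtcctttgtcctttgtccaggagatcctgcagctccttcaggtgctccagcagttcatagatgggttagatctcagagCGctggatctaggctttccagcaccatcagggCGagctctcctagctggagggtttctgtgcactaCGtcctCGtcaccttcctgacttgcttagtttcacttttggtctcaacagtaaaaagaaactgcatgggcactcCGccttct
Birc2: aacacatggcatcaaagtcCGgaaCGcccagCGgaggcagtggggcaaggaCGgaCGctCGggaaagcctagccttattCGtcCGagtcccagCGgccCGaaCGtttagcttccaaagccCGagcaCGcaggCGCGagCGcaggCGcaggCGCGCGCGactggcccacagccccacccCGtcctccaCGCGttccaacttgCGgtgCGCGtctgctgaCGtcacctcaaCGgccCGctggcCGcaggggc
Birc3: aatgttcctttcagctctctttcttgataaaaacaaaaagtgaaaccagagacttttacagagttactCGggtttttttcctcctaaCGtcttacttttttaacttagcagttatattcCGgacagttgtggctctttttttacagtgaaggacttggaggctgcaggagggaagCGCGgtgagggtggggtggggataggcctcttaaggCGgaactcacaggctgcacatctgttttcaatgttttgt
Map3k5: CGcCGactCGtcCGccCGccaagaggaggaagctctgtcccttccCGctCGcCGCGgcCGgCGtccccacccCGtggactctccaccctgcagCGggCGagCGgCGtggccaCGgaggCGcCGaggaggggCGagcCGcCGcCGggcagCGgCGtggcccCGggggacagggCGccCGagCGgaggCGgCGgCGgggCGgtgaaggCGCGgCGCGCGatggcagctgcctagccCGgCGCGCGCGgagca
These windows lie at chr19:34290409-34290658 (plus strand, Fas), chr3:27316827-27317076 (plus, Tnfsf10), chr9:7837058-7837307 (minus, Birc2), chr9:7873171-7873420 (minus, Birc3) and chr10:19934276-19934525 (plus, Map3k5). Map3k5 had 43 CG pairs and 80.8% G or C, and 0.712% of 32851 such windows in the mouse genome had as many. Birc2 had 31 CG pairs (68.4% G or C), a number reached by 5.19% of windows. Birc3 and Tnfsf10 had 6 each, which is the median of all windows, and Fas had 11. Whether base composition is related to the size or direction of the changes was not tested.

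Of the ligand genes, Tnfsf10 was higher in cKO while Fasl was low and variable. Tnfsf10 (chromosome 3, 27317028 to 27342427 on mm10) encodes TRAIL, a TNF family ligand that can kill cells carrying its receptor. It had 50.9, 43.2, 40.4 and 43.4 CPM in the cKO libraries and 27.6, 27.9 and 31.5 CPM in the WT libraries. Every cKO library was above every WT library. The means were 44.5 ± 4.49 and 29.0 ± 2.18 CPM (SD, n = 4 and 3), a 1.53-fold difference. On the log2 scale the fold change was 0.62 ± 0.09 (SE), with a 95% interval of 0.41 to 0.82 and an adjusted p of 0.00497 in edgeR.

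Fasl (chromosome 1, 161780689 to 161788495), which encodes Fas ligand, had 7.48, 4.86, 4.60 and 7.81 CPM in the cKO libraries and 5.88, 9.99 and 5.28 CPM in the WT libraries. The groups overlapped, and the highest and the lowest values of the 7 lay in WT replicate 14 and cKO replicate 7. Its log2 fold change of -0.20 ± 0.27 (SE) had the widest 95% interval of the 10 genes, -0.81 to 0.41. It rested on 106 to 288 reads per library, and became 0.14 without WT replicate 14.

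Fas itself was lower in cKO. Fas (chromosome 19, 34290666 to 34327772) had 29.5, 25.2, 26.4 and 23.2 CPM in the cKO libraries and 39.5, 41.1 and 46.2 CPM in the WT libraries. The highest cKO library, replicate 2, stayed below the lowest WT library. The means of 26.1 ± 2.65 and 42.3 ± 3.47 CPM (SD, n = 4 and 3) put the cKO level at 0.617 times that of WT. The log2 fold change was -0.70 ± 0.09 (SE) with an adjusted p of 0.00288 in edgeR, and 9.28% of all tested genes had a larger change in either direction. Leaving out any 1 library gave values between -0.76 and -0.63.

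**Figure D1:**
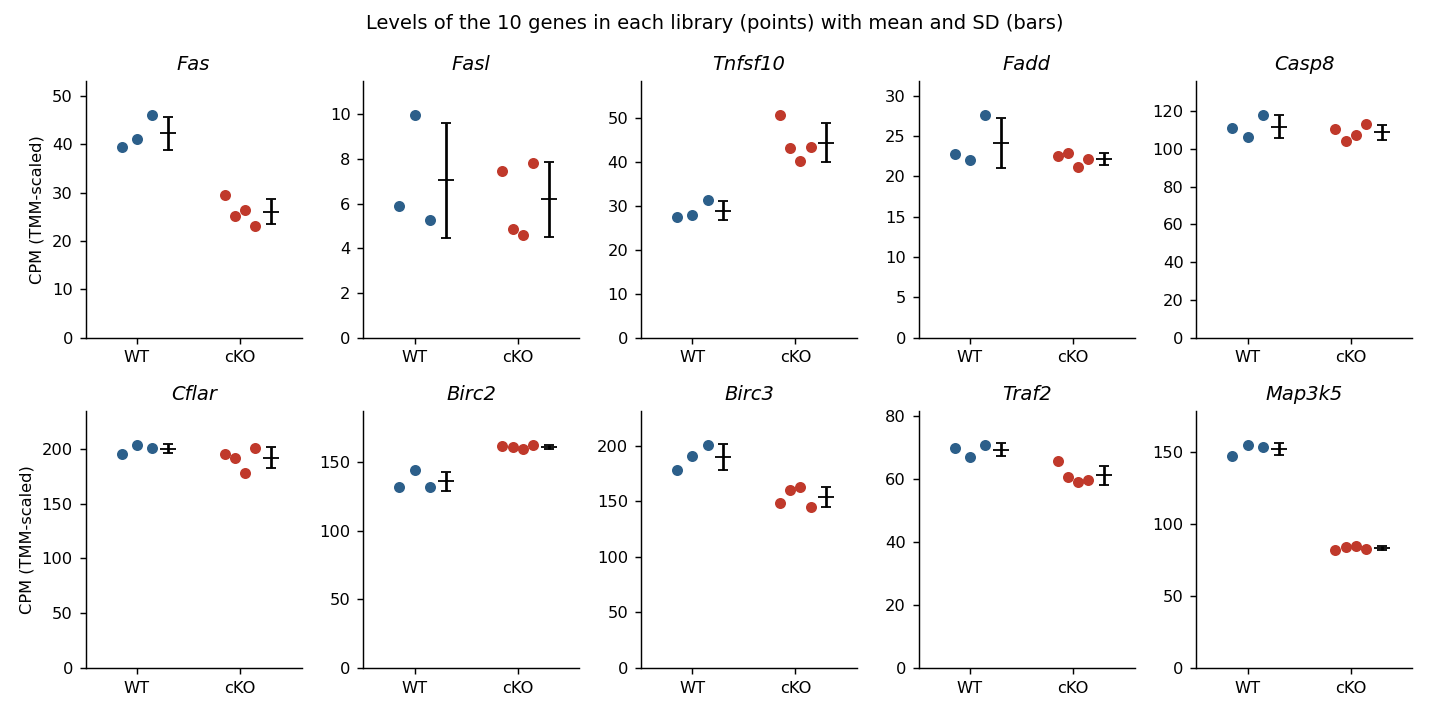
Each panel plots 1 gene, with its level in CPM (TMM-scaled) on a linear axis from 0, and points for the 3 WT and 4 cKO libraries beside the mean and SD of each group. Map3k5, Fas, Birc3 and Traf2 lie lower in every cKO library, Tnfsf10 and Birc2 lie higher in every cKO library, and the groups overlap for Fasl, Fadd, Casp8 and Cflar.

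None of the 3 genes of the complex that forms below Fas passed the threshold. Casp8 encodes the initiator caspase of the pathway and had 110.4, 104, 108 and 113 CPM in the cKO libraries and 111, 106 and 118 CPM in the WT libraries. Cflar, which encodes its inhibitor c-FLIP, had 196, 192, 178 and 201 CPM in cKO and 196, 204 and 201 CPM in WT libraries. The adaptor gene Fadd had 22.6, 22.9, 21.2 and 22.1 CPM in the cKO libraries and 22.7, 22.0 and 27.6 CPM in the WT libraries. The groups overlapped for all 3 genes.

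The intervals of these differences were narrow for Casp8 and Cflar. For Casp8 the log2 fold change was -0.04 ± 0.06 (SE), with a 95% interval of -0.17 to 0.09, and it was 0.00 without WT replicate 19. That of Cflar was -0.06 ± 0.06, with an interval of -0.19 to 0.07. Fadd had -0.12 ± 0.09 and an interval of -0.33 to 0.09, and WT replicate 19 was above all other libraries. Without that library the log2 fold change of Fadd was -0.012. An antisense gene, Faddos, overlaps exons of Fadd with 41 to 74 reads per library, and since the sources used here do not say whether counting used strand, the reads of the pair may be mixed. Casp8 (chromosome 1, 58795374 to 58847503) and Cflar (58711508 to 58758884) lie on the same strand with 36489 bases and no other protein-coding gene between them. Their ratio per length was 0.402 ± 0.0179 in cKO and 0.410 ± 0.0259 in WT (Cflar to Casp8, SD, n = 4 and 3), and the groups overlapped. Next to Casp8, the transport adaptor gene Trak2 was not past the threshold (log2 -0.11, adjusted p = 0.275 in edgeR).

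At the TNF receptor, the cIAP genes moved in opposite directions and Traf2 did not pass. Birc2, which encodes cIAP1, had 161, 161, 159 and 163 CPM in the cKO libraries and 132, 144 and 132 CPM in the WT libraries. Every cKO library was above every WT library. The means were 161 ± 1.38 and 136 ± 7.21 CPM (SD, n = 4 and 3), and cKO was 18.5% higher. Birc3, which encodes cIAP2 and is itself a well-known NF-kB target, had 148, 160.0, 162 and 145 CPM in cKO and 178, 191 and 201 CPM in WT libraries. All cKO libraries were below all WT libraries, and the means were 154 ± 8.66 and 189.9 ± 11.4 CPM (SD, n = 4 and 3).

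Both changes were small, and their direction and size held in every alternative, at log2 0.22 to 0.29 for Birc2 and -0.35 to -0.24 for Birc3, while the adjusted p crossed the threshold in some. The log2 fold change of Birc2 was 0.25 ± 0.05 (SE, adjusted p = 0.0278 in edgeR), and the call ended without cKO replicate 3 (0.0599) or 7 (0.0587) and without WT replicate 10 (0.134) or 19 (0.115). It also ended with no filter (0.0521) and with a marker covariate (0.0957), where the log2 fold change was 0.23 and 0.25. That covariate is the scaled mean log2 CPM of the B cell, monocyte and macrophage, and dendritic cell markers. For Birc3 the log2 fold change was -0.30 ± 0.07 (adjusted p = 0.0254), and the call ended without WT replicate 14 (0.106) or 19 (0.108) and with the marker covariate (0.104), with log2 fold changes of -0.31, -0.26 and -0.29. Of all tested genes, 32.2% had a larger change than Birc2 and 26.1% a larger one than Birc3.

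The ratio of the pair shows the same libraries from another side. Birc2 (chromosome 9, 7818227 to 7837064) and Birc3 (7848699 to 7873186) lie on the same strand, 11634 bases apart, with no protein-coding gene between them. Per kilobase of exon, the Birc2 to Birc3 ratio was 1.19, 1.10, 1.07 and 1.23 over the cKO libraries and 0.808, 0.827 and 0.717 over the WT libraries. By this measure Birc3 was the more abundant of the pair in every WT library, and Birc2 in every cKO library. The order in cKO depends on the exon models, of 4.58 kb for Birc2 and 5.01 kb for Birc3. In CPM not divided by length, Birc2 was the higher in cKO replicates 2, 3 and 12 but not in 7 (159 against 162). In replicate 3 the 2 genes were close (161 against 160.0). Of the 50-base words of Birc2, 68 (1.49%) occur in transcripts of other genes, Birc3 among them. For Birc3 the share is 7.56%, or 384 words. It is counted over all other genes and so does not measure how alike the pair is.

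**Figure D2:**
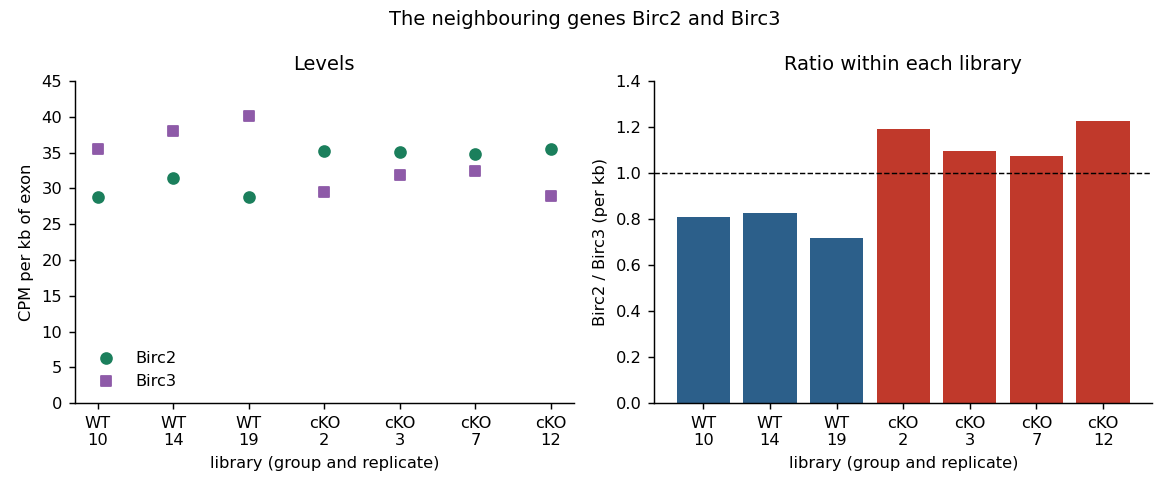
On the left, levels of Birc2 and Birc3 in CPM per kilobase of exon are plotted for each library, and on the right the bars give their ratio in the same library, with a dashed line at a ratio of 1. The 3 WT libraries have ratios of 0.717 to 0.827, below the line, and the 4 cKO libraries have 1.07 to 1.23, above it.

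The genes on either side of the pair were not alike. Tmem123, which flanks Birc2, was not past the threshold (log2 0.19, adjusted p = 0.208 in edgeR). Yap1, which flanks Birc3 and encodes a transcriptional co-activator of the Hippo pathway, rose from a low level of 0.443 ± 0.121 CPM in WT to 1.55 ± 0.353 CPM in cKO (SD, n = 3 and 4). Its log2 fold change was 1.81 (adjusted p = 0.0110 in edgeR), and the call ended without WT replicate 10 (0.0525) or 14 (0.0644).

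Traf2 (chromosome 2, 25517982 to 25546940) had 65.5, 60.5, 58.8 and 59.6 CPM in the cKO libraries and 69.9, 66.8 and 70.8 CPM in the WT libraries. The groups did not overlap, with the highest cKO library just below the lowest WT library. The log2 fold change was -0.18 ± 0.06 (SE), and its 95% interval of -0.31 to -0.04 did not include 0, but over all tested genes the adjusted p was 0.120 in edgeR and 0.0946 in DESeq2. It passed in limma voom with quality weights (0.0343).

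Map3k5 had the largest change of the 10 genes. Map3k5 (chromosome 10, 19934472 to 20142753), the gene of ASK1, had 81.9, 84.1, 84.8 and 82.5 CPM in the cKO libraries and 147, 155 and 153 CPM in the WT libraries. The cKO libraries lay within 3 CPM of each other, far below the lowest WT library. The means were 83.3 ± 1.36 and 152 ± 4.06 CPM (SD, n = 4 and 3), so the cKO level was 0.549 times that of WT. Its log2 fold change of -0.87 ± 0.05 (SE) had a 95% interval of -0.98 to -0.75 and an adjusted p of 2.97e-05 in edgeR, and 6.75% of tested genes had a larger change. Leaving out any 1 library gave values from -0.89 to -0.85.

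**Figure D3:**
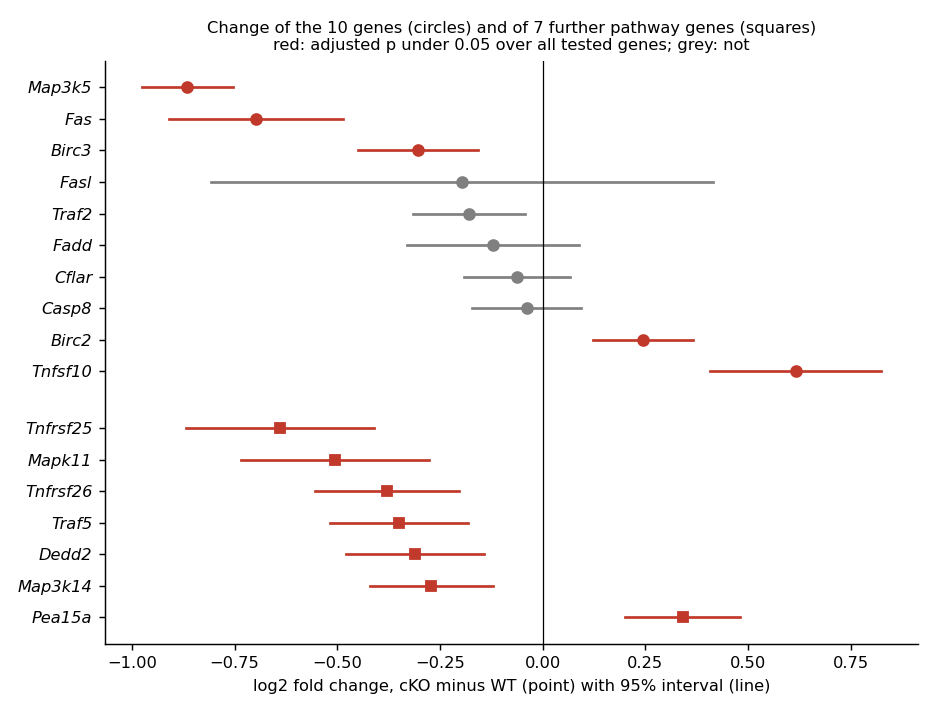
Points are log2 fold changes (cKO minus WT) from the fit of all tested genes and lines their 95% intervals, for the 10 genes (circles) and the 7 further pathway genes that passed the threshold (squares); red marks an adjusted p under 0.05. Map3k5 at -0.87 and Tnfsf10 at 0.62 are the ends of the range of the 10, and the intervals of Fasl, Fadd, Cflar and Casp8 include 0.

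Levels between genes were compared per kilobase of exon. In WT cells Casp8 (38.6 ± 2.10 CPM per kb, SD, n = 3) and Birc3 (37.9 ± 2.27) were highest and overlapped. They were followed by Birc2 (29.7), Map3k5 (24.9), Fas (20.5), Cflar (15.8) and Traf2 (13.6), each of whose libraries lay apart from those of its neighbours in the order. Fadd (6.18) and Tnfsf10 (5.51) overlapped, and Fasl (3.64) was lowest. In cKO cells the order was Casp8 (37.6 ± 1.36 CPM per kb, n = 4), Birc2 (35.1), Birc3 (30.7), Cflar (15.1), Map3k5 (13.7), Fas (12.6), Traf2 (12.0), Tnfsf10 (8.44), Fadd (5.68) and Fasl (3.20). There Map3k5 and Fas overlapped, as did Fas and Traf2. By their means, Map3k5 and Fas stood above Cflar in WT and below it in cKO, where the libraries of Fas and Cflar overlapped. Tnfsf10 lay above Fadd in every cKO library. Cflar has the longest exon model of the 10, 12.7 kb, so its rank depends on how much of that model these cells use.

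**Figure D4:**
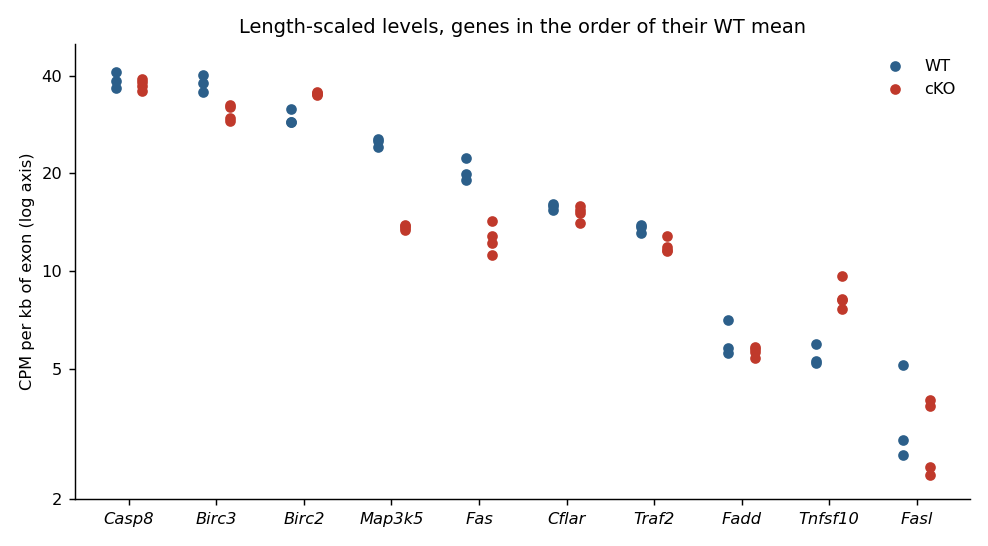
Each point is 1 library, with the level in CPM per kilobase of exon on a log axis and the 10 genes in the order of their WT mean. WT means run from 38.6 for Casp8 to 3.64 for Fasl. In cKO the points of Map3k5 lie between those of Cflar and Traf2, and those of Fas overlap both.

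Of 77 other genes of these pathways, listed by function, 76 were tested and 7 passed (9.21%, against 6.44% of all tested genes), 1 higher and 6 lower in cKO. These lists too were drawn up with earlier results of the same comparison known, and nothing is read from that share. Among 12 tested death receptor and ligand genes, Tnfrsf25 and Tnfrsf26 fell and 0 rose in edgeR (with unadjusted p under 0.05, 1 higher and 4 lower; 1 and 2 in DESeq2; 0 and 2 in limma voom), with a list median of -0.17. Tnfrsf25, which encodes the death receptor DR3 of T cells, had 44.8, 40.2, 38.2 and 52.0 CPM in the cKO libraries and 71.1, 68.4 and 65.2 CPM in the WT libraries. The groups did not overlap, and the log2 fold change was -0.64 ± 0.10 (SE, adjusted p = 0.00637 in edgeR). Tnfrsf26, another TNF receptor family gene, averaged 127 ± 12.1 CPM in cKO libraries against 165 ± 7.54 CPM in WT libraries (log2 -0.38, adjusted p = 0.0207). Its call ended without WT replicate 10 (0.0825), 14 (0.109) or 19 (0.0529). The TNF receptor gene Tnfrsf1a (log2 -0.20, adjusted p = 0.217), the TRAIL receptor gene Tnfrsf10b (-0.15, 0.678) and Tnf (-0.20, 0.705) were not past the threshold in edgeR. Tnfrsf21, which encodes death receptor 6 and is named after its values were seen, averaged 4.74 ± 1.67 CPM in cKO libraries against 2.28 ± 0.334 CPM in WT libraries (log2 1.05, adjusted p = 0.0615), and passed in DESeq2 (0.00769), with no filter (0.0385) and without cKO replicate 7 (0.0282).

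Among 23 adaptors and regulators of the receptor complexes, Pea15a rose and Traf5 and Dedd2 fell in edgeR, with a list median of -0.03. Pea15a, which encodes a small protein with a death effector domain, averaged 114 ± 6.23 CPM in cKO libraries against 90.2 ± 3.84 CPM in WT libraries (SD, n = 4 and 3; log2 0.34, adjusted p = 0.0124). The call ended without WT replicate 10 (0.0705) or 14 (0.0749). Traf5, an adaptor gene related to Traf2, had 40.2 ± 1.14 and 51.3 ± 4.98 CPM (log2 -0.35, adjusted p = 0.0249), and lost its call without cKO replicate 3 (0.0566), without WT replicate 10 (0.0687) or 19 (0.0852) and with the marker covariate (0.106). Dedd2, another death effector domain gene, had 71.8 ± 5.81 and 89.2 ± 4.43 CPM (log2 -0.31, adjusted p = 0.0393). It lost its call without cKO replicate 3 (0.0774), without WT replicate 10 (0.0776), 14 (0.158) or 19 (0.135) and with the marker covariate (0.169). Ripk1, the kinase gene of the TNF receptor complex (log2 -0.11, adjusted p = 0.300), and Tnfaip3, the gene of the ubiquitin-editing enzyme A20 (-0.07, 0.841), were not past the threshold.

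Of 4 noncanonical NF-kB genes, Map3k14 fell and 0 rose in edgeR (0 and 2 at an unadjusted p under 0.05 and in DESeq2, 0 and 1 in limma voom). Map3k14 encodes the kinase NIK, which complexes of TRAF2, TRAF3 and cIAPs mark for degradation as protein. It had 133, 138, 144 and 145 CPM in the cKO libraries and 154, 172 and 181 CPM in the WT libraries, with no overlap. This was a log2 difference of -0.27 ± 0.07 (SE), with adjusted p = 0.0423 in edgeR. The call ended without cKO replicate 2 (0.0613), 3 (0.0936), 7 (0.0607) or 12 (0.0532), without WT replicate 14 (0.154) or 19 (0.163), and with the marker covariate (0.196).

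Of 19 ASK1 partners and downstream kinases, Mapk11 fell and 0 rose in edgeR (1 and 1 at an unadjusted p under 0.05, 0 and 1 in DESeq2 and in limma voom), with a list median of -0.02. Mapk11, a p38 kinase gene, had 27.6, 26.5, 26.1 and 20.8 CPM in the cKO libraries and 34.3, 34.6 and 38.6 CPM in the WT libraries. The groups did not overlap, and the log2 fold change was -0.51 ± 0.10 (SE, adjusted p = 0.0192 in edgeR), a call that ended without WT replicate 10 (0.0576), 14 (0.0697) or 19 (0.0864). The abundant p38 gene Mapk14 averaged 199 CPM in both groups, with a 95% interval of -0.11 to 0.11 for its log2 fold change. Map3k15, an ASK family kinase gene, was not past the threshold (log2 0.06, adjusted p = 0.753 in edgeR). The thioredoxin gene Txn1, whose product binds and restrains ASK1, was not past it either (log2 -0.05, adjusted p = 0.825).

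No caspase gene or caspase target passed in edgeR. Of the 12 tested, 1 had an unadjusted p under 0.05, and the same 1 was called, as higher, by DESeq2 and by limma voom. It was Parp1, a DNA repair enzyme gene whose product is cleaved in apoptosis, named after its values were seen, which averaged 147 ± 4.03 CPM in cKO libraries against 127 ± 5.60 CPM in WT libraries (adjusted p = 0.0514 in edgeR, 0.0154 in DESeq2, 0.0370 in limma voom and 0.0452 with the stricter filter). Of 6 other IAP genes and IAP antagonists, edgeR, DESeq2 and limma voom called 0, and 1, a higher one, had an unadjusted p under 0.05. That gene was Xiap, the X-linked inhibitor of caspases, named after its values were seen, with a log2 fold change of 0.15 (95% interval 0.01 to 0.29, adjusted p = 0.205 in edgeR).

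**Figure D5:**
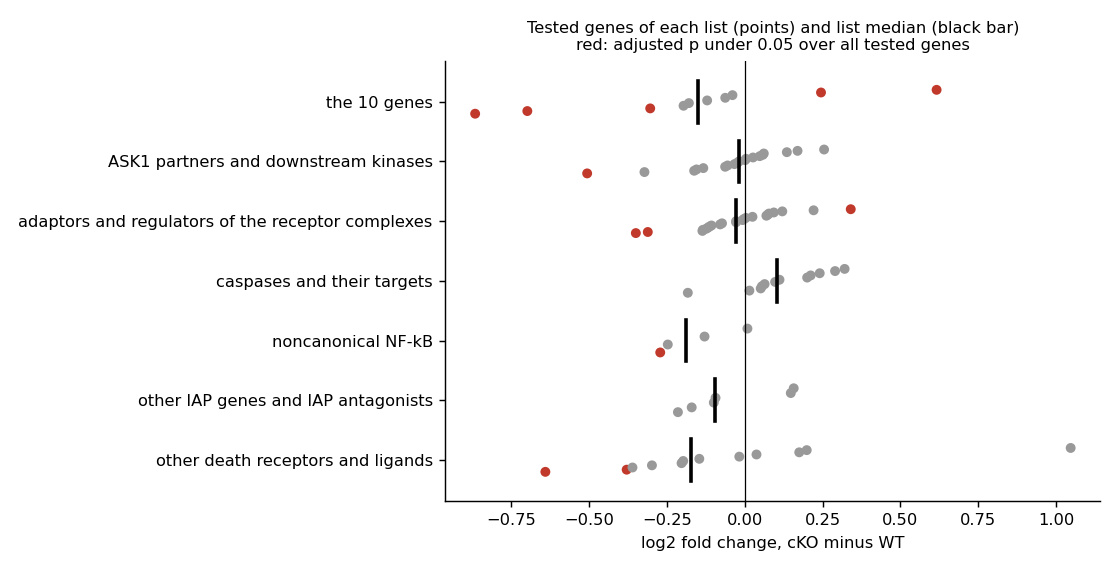
Each point is the log2 fold change (cKO minus WT) of 1 tested gene, in rows for the 10 genes and for the 6 lists of other pathway genes, with a black bar at the list median and red for an adjusted p under 0.05. The list medians lie between -0.19 (noncanonical NF-kB) and 0.10 (caspases and their targets).

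For each of the 5 genes that passed, the 3 genes whose profile over the 7 libraries was most like it were found by the root mean square (RMS) difference of centred log2 CPM among 9810 candidates. For Map3k5 these were Dusp1 (0.05), Slc12a7 (0.08) and Sugt1 (0.09), where the median candidate differed by 0.44. For Fas they were Rtn4rl1, Syt11 and Rgs10 (0.08 each, median 0.38), and for Tnfsf10 they were Fam69b (0.07), Mansc1 (0.08) and Mast4 (0.09, median 0.34). Those nearest to Birc2 were Mprip (0.03), Fbxo21 (0.04) and Acot8 (0.04, median 0.18), and those nearest to Birc3 were Ppp1r9b (0.03), Zyg11b (0.04) and Slc25a37 (0.04, median 0.20). Of these 15 genes 13 passed the threshold in edgeR, and Fbxo21 (adjusted p = 0.0820) and Acot8 (0.137) did not. Over all tested genes 6.44% passed. The measure counts the difference between the groups as well as the spread within them. Genes near a called gene therefore tend to be called too, and nothing is read from the 13. None of the other members was among the 15 genes named.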

How the data were processed

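RNA was sequenced from 4 cKO and 3 WT libraries. The values deposited by the authors are raw read counts per Ensembl gene, as their whole values and unequal sums per library show. Per the labels' protocols the libraries came from a stranded kit after mRNA enrichment, and the build mm10 and bcl2fastq 2.17 are named, per the submitters' processing notes. No source used here gives the aligner, the counter or its use of strand. Symbols, coordinates and exon lengths came from GENCODE M21 on the same build, matched to 37607 of 39017 identifiers. Every pair of libraries differed by at least 6.28 times sampling noise (chi-square per gene), so none was a duplicate.

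Counts were filtered (filterByExpr), scaled with TMM factors and fitted with edgeR 4.0.16 (quasi-likelihood) in R 4.3.3, comparing the genotypes without covariates. P-values were adjusted by Benjamini-Hochberg across the 15968 tested genes, and the threshold was 0.05. SEs and 95% intervals derive from the F statistic, and CPM from counts and TMM factors. On simulated data, the procedure called 48% of 50 genes changed by a log2 of 0.5, and 98% of 50 changed by 1. Of all its calls there, 4.42% were false. A gene that is not called here may therefore still have changed. Alternatives were DESeq2 1.42.0, DESeq2 size factors, limma 3.58.1 (voom), no filter, a stricter filter, a marker covariate and leaving out each library. Removal of Gm42418 was added after the data were seen. The members and lists were chosen with earlier results of these data known. Named were the 10 members, Kdm6a, every called gene of the 6 pathway lists, the 3 most similar profiles (mean CPM of at least 5, no predicted genes, pseudogenes or receptor segments) and genes next to neighbouring members. Other named genes illustrate their lists and were chosen with values known. Of 129 list entries, 128 were in the table. Intervals cover the spread between libraries only.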

Additional observations from a re-analysis of the deposited data

How the results depend on the processing

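Over 14 alternatives, Fas, Tnfsf10 and Map3k5 kept their direction and their call, with log2 fold changes of -0.77 to -0.63, 0.54 to 0.68 and -0.89 to -0.84. Of the 10 genes, 5 were called, against 3 with the marker covariate and 6 with limma voom, and 3 to 5 when 1 library was left out, with 3 without WT replicate 19. The covariate and the smaller sample each leave fewer degrees of freedom, and whether this lowered the counts was not tested. Over all genes 1028 were called, against 606 with the marker covariate, 1615 in DESeq2 and 1729 in limma voom. Leaving out 1 library gave 1065, 795, 887 and 1014 without cKO replicates 2, 3, 7 and 12. It gave 497, 419 and 466 without WT replicates 10, 14 and 19. The direction turned for Fasl without WT replicate 14 (log2 0.14; the other libraries left out gave values down to -0.37, and limma voom -0.42) and for Casp8 without WT replicate 19 (0.0024; other libraries left out, down to -0.080), neither called under any alternative. Calls ranged over 0 to 1 in the ASK1 list (1), 0 to 3 among adaptors (3), 0 to 1 among caspases (0), 0 to 2 in noncanonical NF-kB (1) and 1 to 3 among death receptors (2), and stayed at 0 among other IAP genes. DESeq2 size factors and removal of Gm42418 left all 5 member calls in place. Fasl, with 106 to 288 reads per library, is the member whose precision is lowest. No paired analysis was possible because the groups share no replicate number.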
